A study of Mus musculus with 4 samples.

Results

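Deep intragenic peaks of long genes are peaks whose summit lies inside the span of a protein-coding gene and more than 50 kb from both ends of every protein-coding span that holds it. The rule uses position only. It found 2915 of 21285 peaks in list 1 and 2918 of 21218 peaks in list 2, in coordinates of the mouse build GRCm38. A gene needs a span of over 100 kb to have such a deep part, and 2404 of 21631 protein-coding genes had one. Because a longer gene offers more deep sequence, gene lists are set against the number and share that genes of like length would give.

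The peaks come from chromatin immunoprecipitation sequencing of cardiac fibroblasts from neonatal mice. The groups were OE-TEAD1, cells overexpressing TEAD1, and OE-NC, the overexpression negative control, each with 1 immunoprecipitated library and 1 input library. The study asked which regulatory elements TEAD1 binds in these cells. The sources used here do not name the antibody, the vector, the age in days or the number of animals or cultures. The labels do not say which of the 2 deposited lists belongs to which group. The lists are therefore called list 1 and list 2, no effect of overexpression is given, and there are no replicates and no test. Peaks do not measure expression, so the cell type in the labels could not be checked against its markers. Levels of single peaks are the authors' folds over input.

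TEAD1 is a DNA-binding protein of the Hippo pathway. It has little activity of its own and works with the coactivators YAP and TAZ, which enter the nucleus when the Hippo kinases are inactive, for example in spread or mechanically stretched cells. TEAD proteins bind the letters GGAATG, read as CATTCC on the other strand, and are known to occupy mostly distal enhancers, often together with AP-1, whose site is TGANTCA. Many enhancers lie in introns, either of the gene they act on or of a neighbour, so a peak deep inside a gene does not name its target.

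Sequence could be read where a deep summit fell into a start window, here the 300 bases that run from 250 before to 50 after a RefSeq transcription start (RefSeq, GRCm38.p6). Such starts are those of internal promoters and of genes nested inside a long gene. Among 32817 start windows, 19 held a deep summit and 11 held one in both lists. Printed here are 5 of those 11, picked with their values in view: the window with the highest folds, the one inside the Hippo gene Ptpn14, the one with both motifs, and the starts of a growth factor gene and of a microRNA host. Capitals mark GGAATG or CATTCC and TGANTCA, searched on both strands. The windows are chr10:86161700-86161999 on the plus strand, chr1:189778459-189778758 on the minus strand, chr2:72351622-72351921 on the minus strand, chr2:126034408-126034707 on the plus strand and chr1:162217373-162217672 on the plus strand, each printed in the direction of the transcript.
Gm35636 start, inside Syn3: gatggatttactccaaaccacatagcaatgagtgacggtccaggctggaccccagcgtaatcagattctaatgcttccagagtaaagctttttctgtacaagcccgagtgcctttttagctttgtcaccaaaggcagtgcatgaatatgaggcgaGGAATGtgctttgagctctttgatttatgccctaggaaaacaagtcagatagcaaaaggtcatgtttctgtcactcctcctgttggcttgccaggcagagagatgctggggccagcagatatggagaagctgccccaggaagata
Gm51739 start, inside Ptpn14: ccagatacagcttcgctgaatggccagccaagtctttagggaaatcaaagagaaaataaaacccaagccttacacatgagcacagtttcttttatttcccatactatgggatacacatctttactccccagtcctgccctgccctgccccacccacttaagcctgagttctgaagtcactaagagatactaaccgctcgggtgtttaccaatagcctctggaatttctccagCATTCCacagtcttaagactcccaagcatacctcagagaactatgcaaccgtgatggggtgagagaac
Gm52556 start, inside Map3k20: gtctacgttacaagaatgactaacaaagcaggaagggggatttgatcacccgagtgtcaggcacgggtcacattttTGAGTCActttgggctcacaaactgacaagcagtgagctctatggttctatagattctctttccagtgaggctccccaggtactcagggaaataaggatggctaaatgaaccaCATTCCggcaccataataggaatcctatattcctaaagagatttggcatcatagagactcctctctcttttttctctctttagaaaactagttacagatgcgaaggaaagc
Fgf7 start, inside Fam227b: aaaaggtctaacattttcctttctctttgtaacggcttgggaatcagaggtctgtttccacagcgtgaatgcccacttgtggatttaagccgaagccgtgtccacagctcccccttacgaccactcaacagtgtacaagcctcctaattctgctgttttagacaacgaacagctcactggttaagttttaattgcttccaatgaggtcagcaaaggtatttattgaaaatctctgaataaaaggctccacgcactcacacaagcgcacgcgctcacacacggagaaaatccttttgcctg
Dnm3os start, inside Dnm3: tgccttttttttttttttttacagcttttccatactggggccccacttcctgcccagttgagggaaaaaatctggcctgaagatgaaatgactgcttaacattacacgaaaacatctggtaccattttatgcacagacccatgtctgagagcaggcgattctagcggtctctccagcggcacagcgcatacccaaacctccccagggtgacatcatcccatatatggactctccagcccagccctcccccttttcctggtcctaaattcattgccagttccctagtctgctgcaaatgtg

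The TEAD letters were present in 9 of the 19 windows (47.4%, Wilson 95% interval 27.3 to 68.3) and in 6 of the 11 with a summit in both lists (54.5%, 28.0 to 78.7), against 14.7% of all start windows. The AP-1 letters were present in 2 of 19 (10.5%) and 1 of 11 (9.09%), against 7.81% of all windows. The start windows are few and are no sample of the deep peaks, nearly all of which lie away from any RefSeq start known here. In the Gm35636 window, a long non-coding RNA start inside the synapsin gene Syn3, the summit of list 1 lay 0.5 bp and that of list 2 lay 11.5 bp from the centre of GGAATG, with folds of 19.8 and 22.1. In the Gm51739 window, inside Ptpn14, a phosphatase that restrains YAP, the distances were 38.5 and 10.5 bp and the folds 7.33 and 17.0. Inside Map3k20, the Gm52556 summits lay 3 and 55 bp from the AP-1 letters and 115.5 and 167.5 bp from the TEAD letters, and the motifs did not overlap. The Fgf7 and Dnm3os windows held neither motif, and their summits had folds of 7.34 and 5.18 at Fgf7 and of 7.71 and 10.5 at Dnm3os.

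The depth behind a peak was recovered from the authors' values. In list 1 the median deep summit was covered by 19 fragments, with quartiles of 14 and 30. In list 2 the median was 22, with quartiles of 15 and 35. The smallest number was 8 in both. Intervals of folds and densities cover counting error only. Of the deep summits, 44.7% in list 1 and 45.1% in list 2 lay within 10 kb of another deep summit of the same list, so they are not independent of each other and the intervals of densities are too narrow. The local background was at least 2 times its lowest value at 258 deep peaks of list 1 (8.85%) and 120 of list 2 (4.11%), close to the 9.16% and 4.45% among the other peaks inside gene spans.

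Deep sequence held slightly fewer peaks than its length would give. Deep peaks made up 13.7% of list 1 (Wilson 95% interval 13.2 to 14.2) and 13.8% of list 2 (13.3 to 14.2), and 14.3% of the annotated extent of the chromosomes was deep. Among summits inside genes, 28.3% were deep in list 1 (27.4 to 29.2) and 28.8% in list 2 (27.9 to 29.7), below the 36.1% of gene sequence that was deep. Over all spans above 100 kb, the deep part had 7.85 summits per Mb in list 1 and the outer part, within 50 kb of an end, had 11.9. In list 2 the densities were 7.86 in the deep part and 11.6 in the outer part.

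The gap between deep and outer sequence differed with the length of the gene. In genes of 100 to 200 kb the deep part had 13.3 summits per Mb and the outer part 13.2 in list 1, a ratio of 1.01 (95% interval 0.922 to 1.1), and in list 2 the ratio was 0.985 (0.900 to 1.08). Genes of 200 to 400 kb had ratios of 0.977 (0.890 to 1.07) and 1.00 (0.912 to 1.1). All 4 of these intervals hold a ratio of 1. In genes of 400 to 800 kb it held fewer, with ratios of 0.754 (0.650 to 0.877) in list 1 and 0.805 (0.692 to 0.939) in list 2, and in the 98 genes over 800 kb the ratios were 0.681 (0.487 to 0.975) and 0.694 (0.506 to 0.972).

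The longest genes were poor in summits throughout. Deep density was 13.3 and 12.7 summits per Mb in genes of 100 to 200 kb (list 1, then list 2), 11.1 and 11.0 in genes of 200 to 400 kb, 6.83 and 6.89 in genes of 400 to 800 kb, and 2.60 and 2.98 in genes over 800 kb. Outer density fell along the same classes, to 3.82 and 4.29 in genes over 800 kb. Sequence more than 200 kb from any end, which only the longer genes have, held 3.19 and 3.46 summits per Mb.

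**Figure D1:**
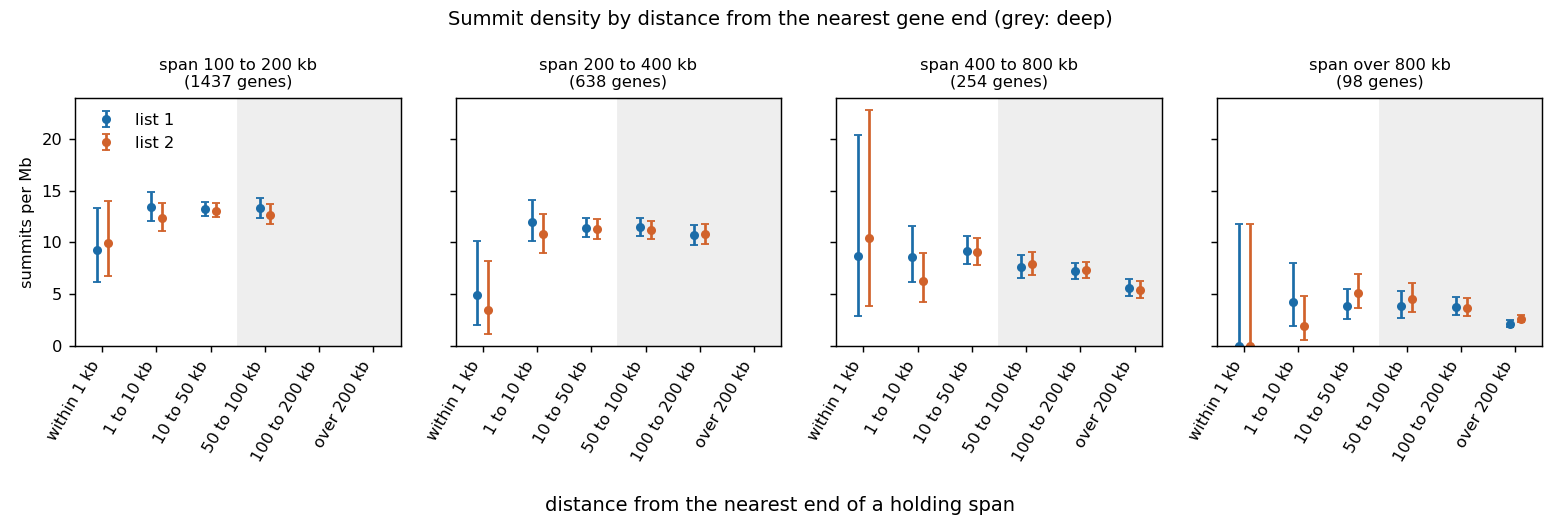
Summits per Mb (vertical axis, with exact Poisson 95% intervals) by distance from the nearest gene end (horizontal axis), in 4 classes of span length, list 1 in blue and list 2 in orange; grey marks the deep part. Density is nearly level in genes of 100 to 200 kb, between 12.4 and 13.4 per Mb from 1 kb inward, and at most 5.10 per Mb in genes over 800 kb.

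Chromosomes differed more than the lists. Deep sequence of chromosome X had 2.12 summits per Mb in list 1 and 1.95 in list 2, against 8.14 in list 1 and 8.16 in list 2 on the autosomes. Its outer sequence was also low, at 3.65 and 5.82 per Mb against 12.3 and 11.9 on the autosomes. Chromosome 15 stood at the other end with 13.7 and 14.2 deep summits per Mb, and 20.8 and 20.7 in the outer parts of its long genes. Given the span lengths of its genes, chromosome 15 held 1.65 and 1.71 times the expected number of deep summits and chromosome X 0.286 and 0.262 times. The local background under the deep peaks of chromosome 15 had a median of 2.59 fragments in list 1 and 2.67 in list 2, against 1.96 and 2.03 over the autosomes, and 48 and 28 of its deep peaks had a raised background. The part of the background in these differences was not tested.

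A deep summit was found in 923 of the 2404 genes in list 1, or 38.4%, and in 930, or 38.7%, in list 2. Both lists had one in 818 genes, list 1 alone in 105 and list 2 alone in 112. The other 1369 genes had none in either list and held 41.3% of the deep sequence. Genes with any deep summit had a median of 2, exactly 1 in 362 and 363 genes, and 10 or more in 45 and 48 genes. The share of genes with a deep summit was 26.5% and 25.1% among those of 100 to 200 kb and between 55.0% and 63.3% in the longer classes, which have more sequence in which to hold one.

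The most deep summits were found in 10 genes with 261 to 1202 kb of deep sequence. Lrmda, a leucine-rich repeat gene linked to pigment cell differentiation, had 22 in list 1 and 27 in list 2, and its 937 kb of deep sequence would hold 2.43 and 2.79 at the density of its length class. Pakap, which encodes a membrane anchor of protein kinase A, had 21 and 19, the recombination gene Rad51b also 21 and 19, and the focal adhesion gene Lpp 20 and 18. Pde4d, a phosphodiesterase that breaks down cyclic AMP, had 20 and 19 in 1202 kb. Ltbp1, which stores latent TGF-beta in the matrix, had 19 and 16. The aminopeptidase gene Aopep had 17 and 21, Stard13 16 and 20, the ankyrin gene Ank3 20 and 14, and the dynamin gene Dnm3 16 and 16. All 10 stood at 4.93 to 9.68 times the number given by the density of their length class, in both lists. They were picked by their number of summits in these same lists, so high ratios were built into the choice.

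Some short deep parts were densely filled. Rnf216, a ubiquitin ligase gene, had 5 summits in each list within 22.1 kb of deep sequence, 226 per Mb. Galk2, a sugar kinase gene, had 5 and 6 within 25.2 kb, with strongest folds of 39.4 and 84.5. Osbpl9, a lipid transfer gene, had 8 and 6 within 41.1 kb, and Ddah1, which clears methylated arginines, 6 and 6. Col4a2, a chain of basement membrane collagen, had 7 and 5, of which 5 were found in both lists. The receptor gene Egfr had 6 and 7, and Mrtfa, a coactivator that senses actin, had 10 and 5. Denn2b with 9 and 10, Rbms1 with 10 and 9 and Aopep completed the 10 densest genes.

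**Figure D2:**
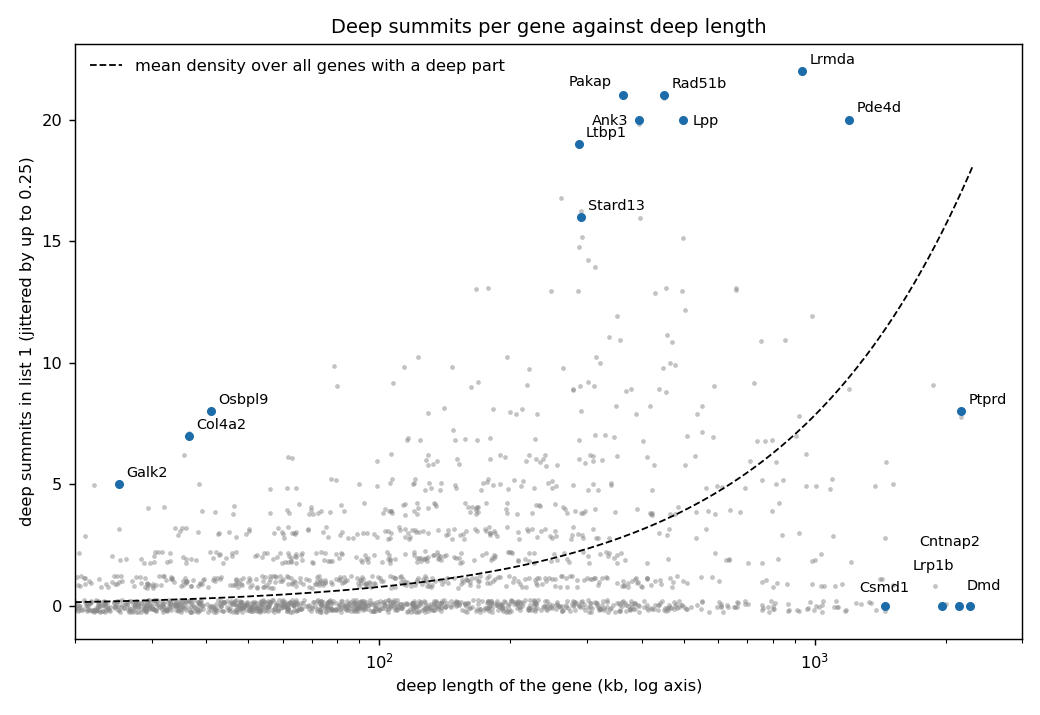
Number of deep summits in list 1 (vertical axis) against deep length in kb (horizontal, log axis), 1 point for each of the 2404 genes, with 16 named genes in blue and the mean density of 7.84 per Mb as a dashed line. Pakap at 363 kb, Ltbp1 at 287 kb and Lpp at 499 kb stand far above the line, and Dmd, Cntnap2 and Lrp1b lie at 0 at about 2 Mb.

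The longest deep parts without any summit in either list belonged to dystrophin and mostly to genes best known from neurons. Dmd, which encodes the dystrophin of muscle and lies on chromosome X, had 0 summits in 2.28 Mb, which allows a density of up to 1.32 per Mb (3 counts over its length). The neural adhesion genes Cntnap2 (2.14 Mb) and Lsamp (2.0 Mb) and the receptor gene Lrp1b (1.96 Mb) had 0, where the density of genes over 800 kb would give 5.56, 5.19 and 5.09 in list 1 and 6.38, 5.95 and 5.83 in list 2. Csmd1, Magi2 and Il1rapl1, with 1.28 to 1.45 Mb each, also had 0, and Il1rapl1 lies on chromosome X as Dmd does, where deep summits were few. Long neural genes were not all empty: the phosphatase gene Ptprd had 8 summits in each list in 2.17 Mb, and the postsynaptic scaffold genes Dlgap1 and Dlgap2 had 11 and 11, and 13 and 9.

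The summits of a gene were spread over its deep part at unequal strengths, as the maps of 8 genes show. In Pard3 and Pakap 1 peak was several times higher than all others of the gene. In Pard3 the summits ranged from 4.41-fold to 95.5-fold in list 1 and from 3.63-fold to 146-fold in list 2. Ltbp1 had a more even series, from 3.47-fold to 31.4-fold in list 1 and from 3.78-fold to 27.2-fold in list 2. Of its summits, 16 in each list had a partner in the other list.

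**Figure D3:**
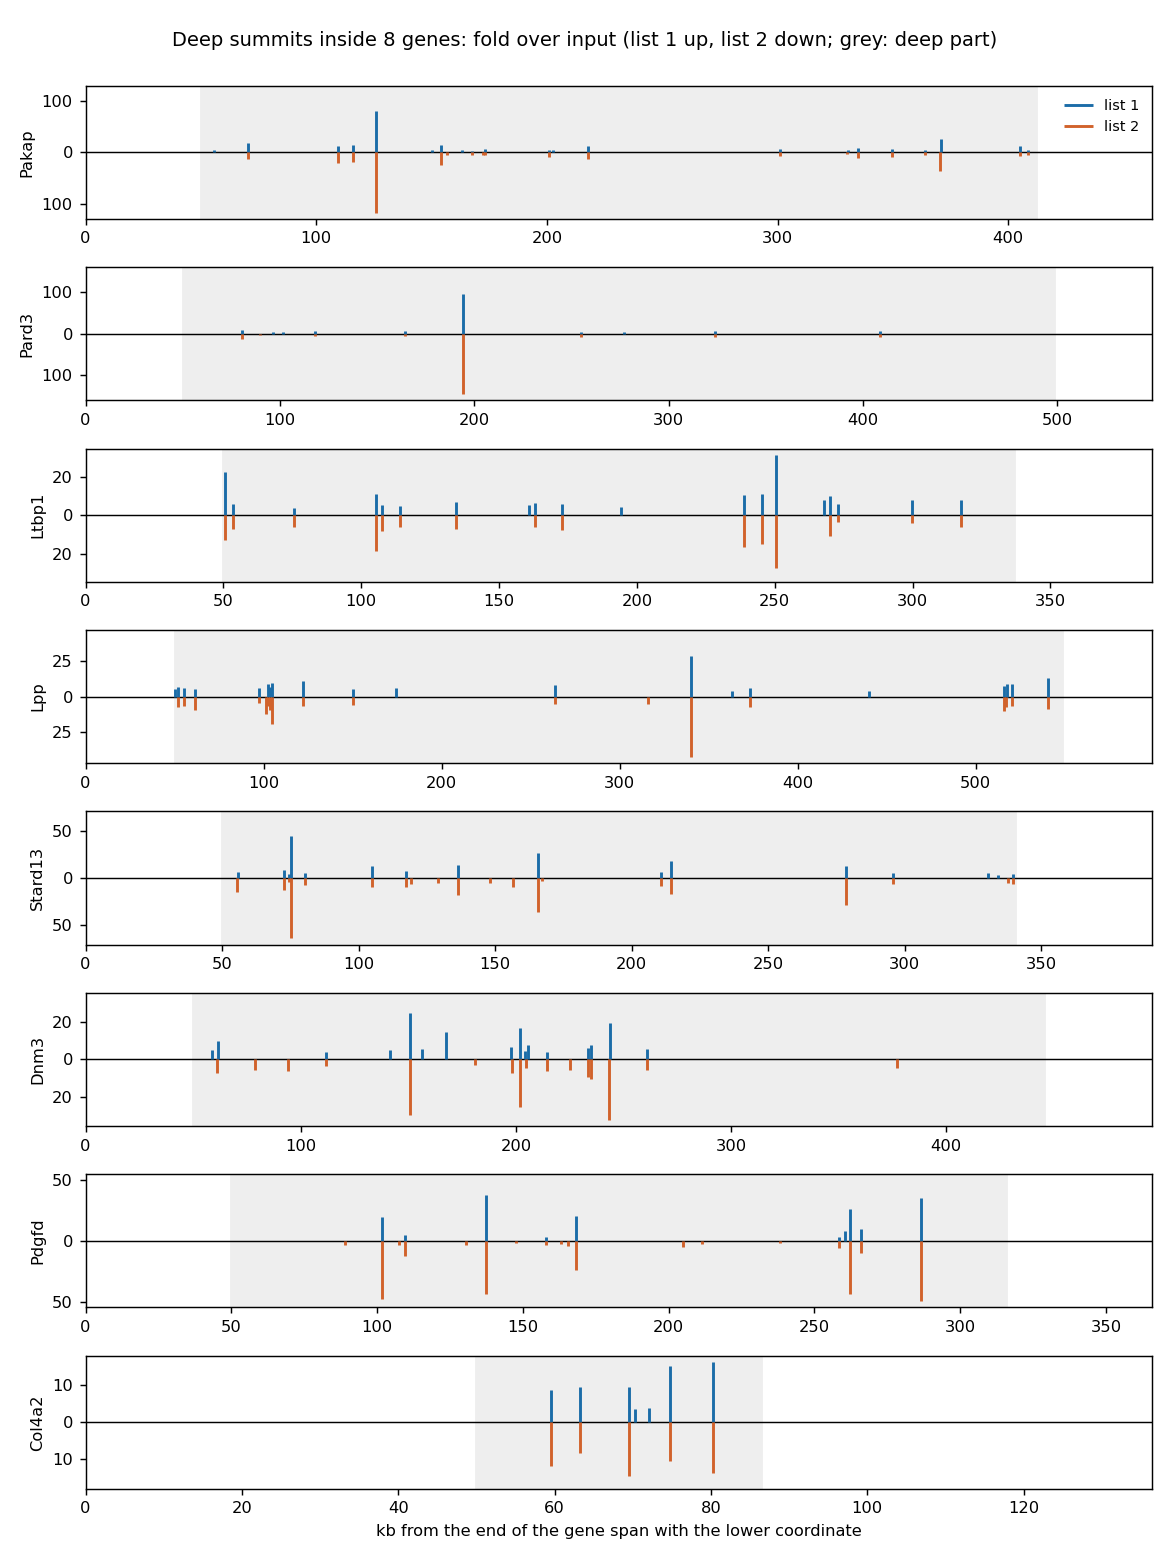
Position (horizontal axis, kb from the end of the span with the lower coordinate) and fold over input (vertical axis) of each deep summit in 8 genes, list 1 drawn upward in blue and list 2 downward in orange, with the deep part in grey; each gene has its own scale. Most tall lines appear at the same place in both lists, and Pard3 and Pakap each have 1 line far above the rest.

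The members of all gene lists were chosen with earlier results of these data known. The expectation by span length was added after the data were seen, so the intervals of the lists are no test. Taken as a whole list, genes of the Hippo pathway were among those with more deep summits than their length gives. Of 16 with a deep part, 10 had a summit in list 1 and 9 in list 2, or 62.5% and 56.2%, beside 38.4% and 38.7% of all long genes. The span lengths of the members would give 33.7% and 33.4%, and shares by length stand likewise beside those of the gene lists of several members that follow. Together they had 28 summits in each list, 16.9 per deep Mb, and 1.84 and 1.87 times the number expected from their span lengths (95% counting intervals 1.23 to 2.66 and 1.24 to 2.70). Without Pard3, which gave the most of these summits, the density was 14.9 per deep Mb in list 1 and 16.5 in list 2. Pard3 alone stood at 3.26 times the number given by its length class in list 1 and 2.59 times in list 2. The ratio of the Hippo list to span length without Pard3 was not worked out. How far the ratio of the whole list rests on this gene was therefore not tested. Pard3, a polarity protein that can recruit Hippo components to cell junctions, had 10 and 8, the junction scaffold Magi1 7 and 7, and the Hippo kinase gene Stk3 2 and 3 with strongest folds of 25.9 and 21.9. Tead1 itself had 2 summits in list 1, the stronger at 5.53-fold, and 3 in list 2, the strongest at 8.37-fold, in 127 kb. The giant cadherin gene Fat1 had 1 and 2 (17.0-fold and 30.4-fold at most), and was picked with its folds in view, while Taok3, a kinase upstream of the pathway, had 0 in 55 kb. The strongest Tead1 peak lay below the median fold of deep peaks in list 1 (6.40) and above it in list 2 (6.98).

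Actin cytoskeleton and focal adhesion genes, through which cells sense tension, had more deep summits than their length gives. Of 40 with a deep part, 33 had a deep summit in list 1 and 30 in list 2 (82.5% and 75%), where all long genes had 38.4% and 38.7% and the lengths of the members would give 43.6% and 44.7%. They had 183 summits in each list, 23.5 per deep Mb. Their numbers were 2.57 and 2.59 times those expected from span length (2.21 to 2.97 and 2.23 to 2.99). Lpp led the list. Palld, which bundles actin, had 15 and 12 summits, the cytoskeletal linker Dst 14 and 14, and the focal adhesion gene Dlc1 13 and 16. Of the members outside the naming rule, Trio, an activator of Rac, was picked for its strongest folds, 40.7 in list 1 and 55.6 in list 2. Diaph2, a formin on chromosome X, had 0 in 616 kb, and the integrin gene Itga9, also picked with its value in view, had 0 in 194 kb.

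Matrix and TGF-beta genes shared Ltbp1, which held 19 of 102 and 16 of 91 summits of the matrix list and 19 of 44 and 16 of 36 of the TGF-beta list. Of 35 matrix genes with a deep part 20 had a summit in list 1 and 18 in list 2 (57.1% and 51.4%), where their lengths would give 42.3% and 43.2%. Their summits were 2.11 and 1.86 times the number expected from span length (1.72 to 2.56 and 1.5 to 2.28), and 1.84 and 1.64 times without Ltbp1 (1.46 to 2.28 and 1.29 to 2.05). Ext1, which elongates heparan sulfate chains, had 13 and 13 summits with strongest folds of 46.6 and 37.3. Thsd4, which binds fibrillin, had 13 and 9, and the ADAMTS-like gene Adamtsl1 6 and 10. Some collagen genes were picked here for their values: Col4a2 had 7 and 5 and Col4a1 3 and 3. Col5a1 had 0 in 53.1 kb and Col12a1 0 in 22.2 kb, short deep parts in which a 0 says little. Sdk1, an adhesion gene placed in the matrix list, had 0 in 874 kb. Of 12 TGF-beta and BMP genes 9 and 8 had a summit (75% and 66.7%), where their lengths would give 36.0% and 35.6%. Their numbers were 3.10 and 2.58 times those expected from span length (2.25 to 4.16 and 1.81 to 3.57), and 2.27 and 1.86 times without Ltbp1 (1.47 to 3.35 and 1.13 to 2.87). Bmper, which binds BMP ligands outside the cell, had 9 and 7, the ubiquitin ligase gene Nedd4l 6 and 5, and the co-receptor gene Tgfbr3 4 and 2. Zeb2, a repressor that acts with SMADs, had 0 in 33.9 kb, also a short deep part.

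Growth factor genes had shares close to those of genes of like length. Of 21 with a deep part 9 had a summit in each list, or 42.9%, where their lengths would give 40.4% and 41.0%. They had 41 summits in list 1 and 48 in list 2, 1.36 and 1.57 times the number expected from span length (0.975 to 1.84 and 1.16 to 2.08). Pdgfd, a ligand of the PDGF receptor on chromosome 9, gave 10 and 18 of them. The local background was raised under all 10 and all 18, at up to 8.30 fragments in list 1 and 15.8 in list 2, where the lowest backgrounds of the lists were 1.72 and 1.87. Without Pdgfd the ratios were 1.14 and 1.08 (0.773 to 1.62 and 0.731 to 1.55). Against the density of all long genes, which takes no account of length class, the ratios were 1.17 and 1.37, and 0.932 and 0.902 without chromosome 9. Nrg1, a ligand of ERBB receptors, had 12 and 10 summits in 984 kb, Egfr 6 and 7, and its substrate Eps8 4 and 4, with strongest folds of 40.0 and 53.0. The ERBB receptor gene Erbb4 had 0 in 977 kb.

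Wnt genes did not stand out. Of 14 with a deep part 6 had a summit in list 1 and 7 in list 2 (42.9% and 50%, by length 32.9% and 32.3%), with 14 and 18 summits, 1.02 and 1.31 times the number expected from span length (0.557 to 1.71 and 0.779 to 2.08). Against the density of all long genes, the strongest 5000 peaks gave 0.909 and 0.307 times the expected number, and the whole lists 1.04 and 1.33. The effector Tcf7l2 had 3 and 4, its paralogue Tcf7l1 2 and 3 and the receptor gene Ror1 3 and 4 in 249 kb, while Ror2 had 0 in 76.8 kb.

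Of 51 transcription factor genes 39 had a deep summit in list 1 and 40 in list 2 (76.5% and 78.4%), where their lengths would give 48.5% and 50.6%. They had 194 and 191 summits, 1.93 and 1.89 times the number expected from span length (1.67 to 2.22 and 1.63 to 2.17). Foxp1 had 15 and 10, the repressor genes Bach2 and Zbtb20 13 and 12, and 13 and 11, and Glis3 10 and 9. Foxp2, a close relative of Foxp1, had 0 in 441 kb. Runx2, the master factor of bone, had 9 and 10 with strongest folds of 37.6 and 47.8, and was named after its values were seen. Kinase and cyclic nucleotide genes had a summit in 29 of 40 in each list (72.5%), where their lengths would give 50.2% and 52.5%, and 1.61 and 1.70 times the expected number of summits (1.35 to 1.91 and 1.43 to 2.0). Besides Pde4d, the kinase gene Mast4 had 12 and 11, and the anchors of protein kinase A Akap6 and Akap13 had 11 and 13, and 8 and 8. Dgkb, a diacylglycerol kinase gene, had 0 in 654 kb.

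Markers of the cell types that a heart culture could hold were set against the same expectation by span length. Of 9 resident fibroblast markers with a deep part 5 had a summit in list 1 and 6 in list 2 (55.6% and 66.7%), where their lengths would give 39.5% and 40.2%. Their summits were 1.89 and 1.63 times the expected number (1.1 to 3.02 and 0.913 to 2.69). The collagen receptor gene Ddr2 had 5 and 4 in 38.5 kb, the channel subunit gene Cacna2d1 5 and 6, Col14a1 4 and 2 and Fbn1 2 and 1. Ebf2 had 0 in 97.7 kb, and Pcdh9, picked with its value in view, had 0 and 1 in 779 kb. The density was 11.3 per deep Mb in list 1 and 8.18 without Ddr2, the member with the most summits there. In list 2 it was 9.96, and 7.72 without Cacna2d1. All long genes had 7.84 and 7.85. Ratios to span length without these members were not worked out. Among the strongest 5000 peaks of each list, fibroblast markers had 0.693 times the number given by all long genes in list 1 and 0 in list 2, against 1.44 and 1.27 in the whole lists. Of 20 cardiomyocyte markers 13 had a summit in each list (65%, by length 52.7% and 55.4%), and their summits were 0.767 and 0.724 times the expected number (0.546 to 1.05 and 0.513 to 0.994), led by Sgcd with 8 and 5, Ctnna3 with 5 and 7, and Rbm20 and Sorbs2 with 6 and 6, and 6 and 5. The cardiomyocyte markers Dmd and Fgf13 had 0 and lie on chromosome X, where deep summits were few. Dmd alone added 5.92 and 6.78 to the expected numbers. The part of chromosome X in the cardiomyocyte ratios was not tested. Of 12 endothelial markers 6 and 7 had a summit (50% and 58.3%, by length 45.6% and 47.2%), with 1.31 and 1.32 times the expected number (0.908 to 1.83 and 0.911 to 1.84), of which Mecom had 11 and 10 and Ptprm 9 and 12. Among the strongest 5000 peaks endothelial genes had 1.01 and 0.854 times the number given by all long genes, against 1.40 in both whole lists. Leukocyte markers had a summit in 6 and 8 of 17 (35.3% and 47.1%, by length 43.3% and 44.4%) and 0.640 and 0.763 times the expected number (0.366 to 1.04 and 0.460 to 1.19). Among 4 smooth muscle and pericyte markers Kcnab1 had 7 and 6, Ano1 0 and 1, and the others 0 (25% and 50% with a summit, by length 33.7% and 33.8%), which gave 1.62 and 1.65 times the expected number (0.652 to 3.34 and 0.664 to 3.40). Of 5 Schwann cell markers 2 had a summit in each list (40%, by length 56.3% and 60.6%), with 0.221 and 0.420 times the expected number (0.0456 to 0.647 and 0.154 to 0.915), and Muc16, the 1 epicardial marker with a deep part, had 0.

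Neuronal genes had fewer deep summits than genes of like length. Of 52 with a deep part 23 had a summit in list 1 and 25 in list 2 (44.2% and 48.1%), where their lengths would give 57.3% and 62.3%. They had 76 and 82 summits, 1.49 and 1.6 per deep Mb. This was 0.189 and 0.204 times the number given by the mean density of all long genes, and 0.468 and 0.457 times that given by the density of genes of their own length class (0.368 to 0.585 and 0.363 to 0.567), a class to which they themselves belong.

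**Figure D4:**
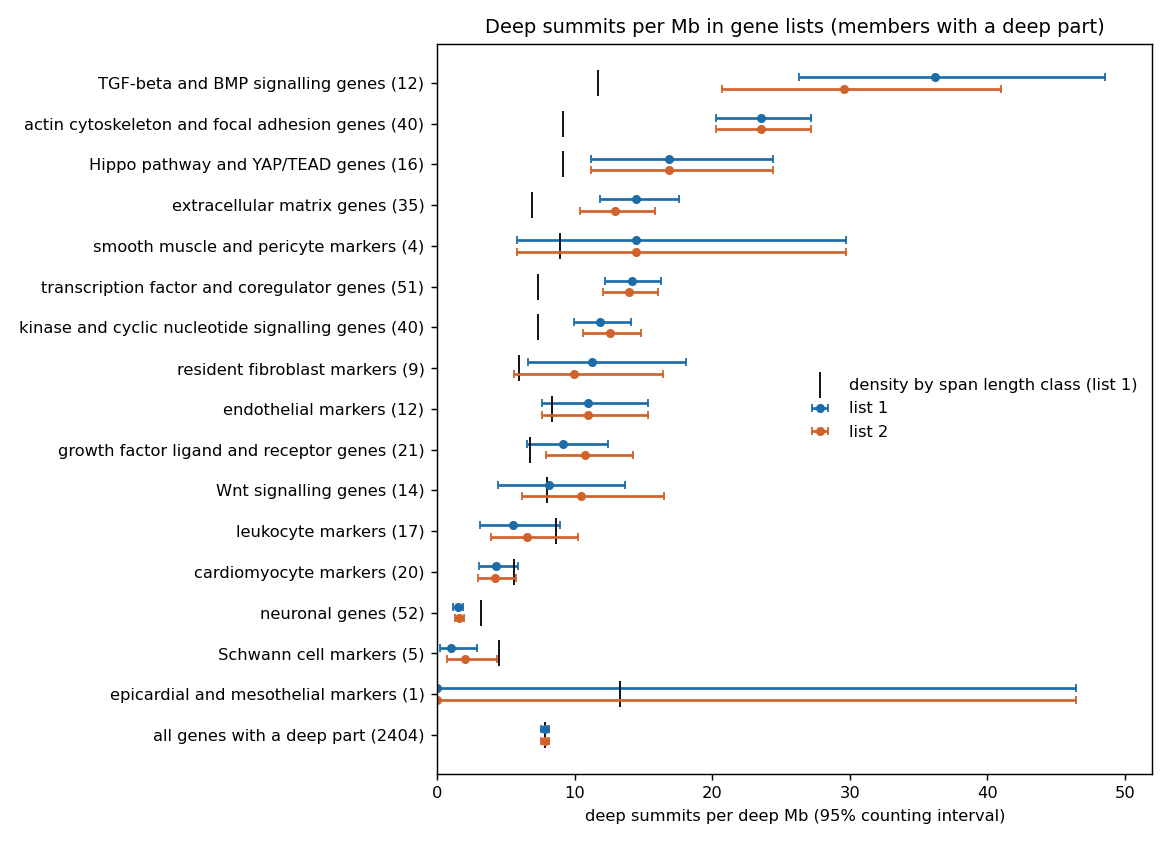
Deep summits per deep Mb (horizontal axis, exact Poisson 95% intervals) in 16 gene lists, with the number of members with a deep part in brackets, list 1 in blue above list 2 in orange, and all 2404 long genes in the bottom row. Black bars mark the density that the span lengths of the members would give in list 1; actin genes at 23.5 lie well above their bar and neuronal genes at 1.49 below it.

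The deep peak with the highest fold in both lists lay in Pard3, with its summit at chr8:127257672 in list 2, 194 kb from the nearer end of the gene. Its fold was 95.5 in list 1 (95% counting interval 84.2 to 108) and 146 in list 2 (133 to 161), on 259 and 418 fragments. Pakap held the deep peak with the smallest q of both lists, at chr4:57560242 in list 1, with folds of 80.6 (72.6 to 89.2) and 118 (108 to 128). In Lhfp the folds were 85.2 and 107, in the adhesion gene Cntnap4 55.2 and 93.4, and in Bcl2, which blocks apoptosis, 44.3 and 77.1. For Cog5, a subunit of a Golgi tethering complex, they were 69.0 and 60.6, for Samd4, an RNA-binding repressor of translation, 68.3 and 56.5, for the oxysterol-binding gene Osbpl3 66.7 and 69.0, and for Cubn, an endocytic receptor, 62.8 and 59.7. Retreg1, a receptor for the turnover of endoplasmic reticulum, had 36.5 in list 1 and 83.2 in list 2, on 155 and 296 fragments. Cntnap4 is listed with this single deep peak in 213 kb in each list, with no weaker ones beside it.

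Of the 10 deep peaks with the smallest q, 1 lay in Pdgfd in list 1 and 4 in list 2, these with folds of 43.1 to 49.5. At the summit near chr9:6270054 the fold was 19.9 in list 1 and 47.5 in list 2, on 163 and 663 fragments over backgrounds of 7.26 and 13. Fragments and background were both higher in list 2 there, and the part of the background in this difference was not tested.

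As a class, deep peaks were close to the other peaks in strength and width. Their median fold was 6.40 in list 1 (quartiles 4.77 and 9.73) and 6.98 in list 2 (4.94 and 10.9), against 6.24 and 6.77 for other peaks inside genes and 6.24 and 6.82 outside genes. Folds of at least 10 were reached by 23.9% of deep peaks in list 1 (22.4 to 25.5) and 28.6% in list 2 (27.0 to 30.3), against 22.4% and 27.6% of other peaks inside genes and 23.0% and 28.2% outside genes. Median widths were 480 and 455 bp for deep peaks, 461 and 436 bp for other peaks inside genes and 478 and 449 bp outside genes.

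Most deep peaks were found in both lists. An overlap of at least 1 bp was found for 72.2% of them in list 1 (70.6 to 73.8) and 72.2% in list 2 (70.6 to 73.8), against 69.4% (68.3 to 70.4) and 71.4% (70.3 to 72.4) of other peaks inside genes. Peaks outside genes were close to the deep peaks, at 71.6% (70.7 to 72.4) in list 1 and 71.2% (70.3 to 72.0) in list 2. Sharing rose with strength. When the deep peaks of each list were divided into 4 equal groups by q, it was 39.9% in list 1 and 39.7% in list 2 for the weakest group, and 98.9% and 99.2% for the strongest. The 810 deep peaks of each list without a partner were mostly weak. The most significant of them in list 1 lay in the chloride channel gene Ano2 (19.1-fold), in AW554918 (16.9-fold) and in Dnm3 (14.3-fold), and in list 2 in Uvrag (15.7-fold), Arhgap26 (13.3-fold) and Fggy (12.4-fold).

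In 2092 pairs of deep peaks the folds of list 1 were a median of 0.895 times those of list 2, a log2 difference of -0.16 with an SD of 0.55 over pairs. The other 12923 pairs had a median of -0.15, an offset of nearly the same size. Folds were at least 2 times as high in list 1 in 47 deep pairs (2.25%) and at least 2 times as high in list 2 in 126 (6.02%). The shares among the other pairs were close to these, at 1.85% and 5.78%. Counting intervals did not overlap in 174 deep pairs (8.32%). This share was not worked out for the other pairs, so it cannot be called particular to deep peaks. Across the pairs, log2 folds had a Pearson r of 0.793, which describes 1 library of each kind and sites that share their sequence. The paired summits lay a median of 25 bp apart, and 88.0% within 100 bp.

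**Figure D5:**
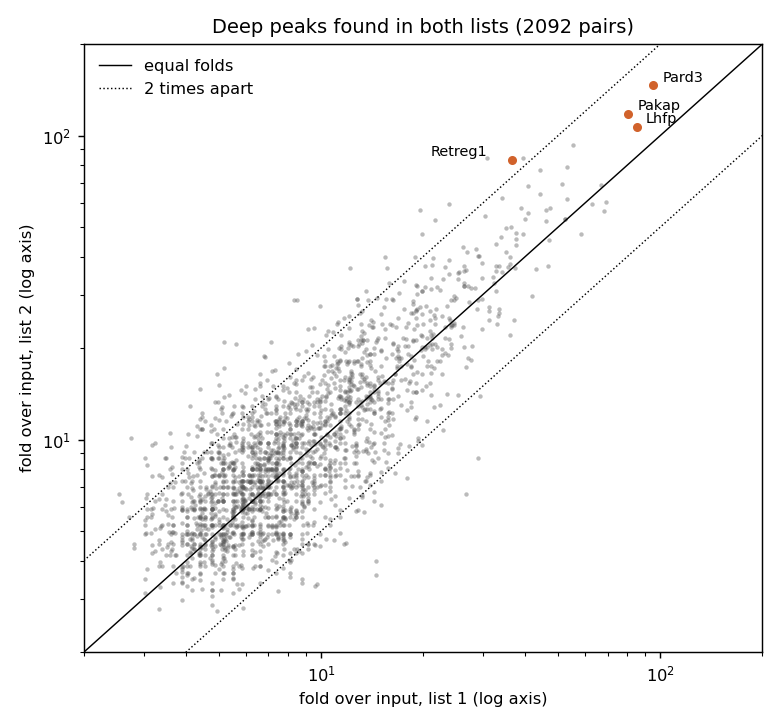
Fold over input in list 1 (horizontal, log axis) and list 2 (vertical, log axis) for the 2092 pairs of deep peaks, with equal folds as a solid line and 2-fold apart as dotted lines. The points follow the solid line, slightly above it, with Pard3 at 95.5 and 146 at the upper end and Retreg1, at 36.5 and 83.2, above the upper dotted line.

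Deep summits were divided about equally between the sides of a gene. Where strand was known, 49.8% of 2204 summits in list 1 (47.7 to 51.9) and 49.4% of 2213 in list 2 (47.3 to 51.5) were nearer to the 5' end. A start of any RefSeq transcript lay within 1 kb of 48 deep summits in list 1 (1.65%) and 45 in list 2 (1.54%), and for 22 and 20 of these it was a start of the gene that held the summit. An end of another protein-coding gene lay within 10 kb for 17 and 23. Long non-coding RNA spans held 6.55% of deep summits in list 1 (5.71 to 7.51) and 6.27% in list 2 (5.45 to 7.21), and 4.31% of deep sequence.

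A microRNA hairpin lay within 10 kb of 17 deep summits in list 1 (0.583%) and 15 in list 2 (0.514%). The share of deep sequence that near to a hairpin was not worked out, so closeness to microRNAs cannot be called a trait of deep peaks. The closest were the summits at Mir199a-2, 0.260 kb away in list 1 and 0.246 kb in list 2, which are also the summits of the Dnm3os window printed above. Mir199a-2 and Mir214 are made from Dnm3os, a transcript inside Dnm3, and have been studied in fibroblasts and in scarring. A second site lay 2.52 and 2.5 kb from Mir214, with folds of 19.2 (14.6 to 24.9) in list 1 and 32.1 (25.9 to 39.3) in list 2. The mature sequences are shown with their seeds, bases 2 to 8, in capitals (RefSeq, GRCm38.p6), and no 2 of them share a seed.
mmu-miR-199a-5p: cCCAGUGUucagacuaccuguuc
mmu-miR-199a-3p: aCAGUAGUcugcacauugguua
mmu-miR-214-5p: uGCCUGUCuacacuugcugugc
mmu-miR-214-3p: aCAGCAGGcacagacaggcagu
Summits also lay 0.288 and 0.273 kb from Mir3075 in Zmiz1, with folds of 16.9 and 13.9, and 0.420 and 0.432 kb from Mir3092 in Fndc3b, with folds of 12.9 and 14.7. Around Mir6896, in the linker gene Dst, a summit 5.70 kb away in both lists had folds of 24.1 in list 1 and 28.7 in list 2, and another, 5.19 and 5.20 kb away, had folds of 19.2 and 30.1.

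At the 50 kb limit, the members nearest to it in list 1 lay in Pde4b, 50.029 kb from an end with a fold of 4.87, and in Spink13, at 50.052 kb with 5.14. In list 2 they lay in Sntb1, at 50.017 kb with 4.64, and in Nhsl1, at 50.047 kb with 3.37. The nearest peaks outside the limit were in Prr5l (49.973 kb, 4.41-fold) and Elovl6 (49.964 kb, 3.51-fold) in list 1, and in Pdzrn3 (49.933 kb, 4.00-fold) and Ak5 (49.916 kb, 16.6-fold) in list 2. Of these 8 peaks, 7 had folds under 6.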

How the data were processed

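ChIP and input libraries of OE-TEAD1 and OE-NC cells (1 each, 4 in all) gave the 2 deposited peak lists. The submitters' processing notes name Trimmomatic 0.33, Bowtie 1.1.2 and MACS2; no source used here gives further settings. The lists are deposited without a header. The authors' values for each peak are a fold, the ratio of ChIP pileup to local background with 1 added to each, a −log10 p and a −log10 q value, and a score that is 10 times the −log10 q without decimals. The notes name the build mm39, but coordinates were read as GRCm38: 280 summits of list 1 and 260 of list 2 fell in GRCm38.p6 start windows, against 109 and 113 after a shift by 20 kb.

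Gene spans, starts and sequences came from RefSeq tables of GRCm38.p6. Spans carry no exons, so exon and intron were not analysed here. Strand and starts were known for 1855 of the 2404 genes, none on chromosome 18. The distance of a summit was that to the nearest end of any span holding it. A summit held by several spans was counted for each in gene counts (12 and 11 summits). Fragments and background at each summit were solved from the fold and p. The fragment number was whole within 0.02 for 99.99% of peaks. Exact Poisson 95% intervals (densities, folds), Wilson intervals (shares) and conditional binomial intervals (ratios of densities) were used, with no test, since each group had 1 library. An upper limit at 0 is 3 counts. Expected numbers used the density of all long genes, or of genes in the same of 4 span classes; the second, and shares of genes by class, were added after the data were seen.

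The 16 gene lists (505 entries) came from general knowledge. Members and lists were chosen with earlier results of these data known. Genes were named by rule: the 10 deep peaks of each list with the smallest q, and the 3 without a partner; the 10 genes with the most summits and the 10 densest with at least 5 in each list; the 8 longest with none (1 of them is not reported here); up to 4 members of each gene list, and its longest member with none; the 2 peaks on each side of the limit in each list; and Tead1. Alternatives were 25 and 100 kb limits, stricter peaks (fold of at least 10, or the strongest 5000), midpoints, other overlaps, and leaving out predicted genes or chromosome 9, and, added later, peaks over a raised background. Python 3.11.15, numpy 2.4.6, scipy 1.17.1, pandas 2.3.3 and matplotlib 3.10.9 were used, and the counting steps were tested on simulated data.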

Additional observations from a re-analysis of the deposited data

How the results depend on the processing

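Taking peak midpoints or leaving out predicted genes changed none of the 44 main values beyond its interval. A limit of 100 kb moved the deep share of all peaks to 6.00% in list 1 and 6.20% in list 2, that of peaks inside genes to 12.4% and 13%, genes with a summit to 409 and 417, the ratio of deep to outer density to 0.582 and 0.610, and sharing in list 2 to 70.3%. A limit of 25 kb gave 23.3% and 23.5%, 48.2% and 49.1%, 1681 and 1727 genes, and ratios of 0.791 and 0.824. The amount of sequence counted changes with the limit, and density also differed with distance from the ends. It was 11.0 and 10.7 summits per Mb at 50 to 100 kb, and 3.19 and 3.46 over 200 kb. The parts of sequence and density in these changes were not tested. With folds of at least 10 the deep share was 14.3% of list 1 and 29.6% of its peaks inside genes, median folds were 14.3 and 15, genes 418 and 484, and sharing 80.1% and 67.1%. With the strongest 5000 peaks these were 14.3% of list 1, 30.0% and 29.9% inside genes, folds of 14 and 16.4, 422 and 428 genes, and sharing of 77.7% and 78.7%. Reciprocal overlap of 0.5 of each peak gave sharing of 65.0% and 65.0%, summits within 100 bp 63.3% and 63.3%, and leaving out raised backgrounds (added after the data were seen) 68.1% and 64.7%. With stricter peaks or without raised backgrounds, a partner counted only if it passed the same filter in its own list. Those shares are therefore not the same measure as the 72.2% of the whole lists.

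Gene lists are given as observed numbers over those expected from the density of all long genes, a basis without length class. On it the main values in list 1, then list 2, were 2.15 and 2.15 for Hippo, 4.61 and 3.77 for TGF-beta, 3.0 and 3.0 for actin, 1.85 and 1.65 for matrix, 1.51 and 1.6 for kinase, 1.81 and 1.78 for transcription factor, 1.17 and 1.37 for growth factor, 1.04 and 1.33 for Wnt, 1.44 and 1.27 for fibroblast, 0.549 and 0.535 for cardiomyocyte, 1.40 and 1.40 for endothelial, 1.84 and 1.84 for smooth muscle and 0.189 and 0.204 for neuronal genes. At 100 kb these were 3.22 for Hippo genes, 7.78 (5.92 in list 2) for TGF-beta, 3.47 for actin, 1.94 (2.0 in list 2) for kinase, 4.57 (4.44 in list 2) for smooth muscle, 2.11 for transcription factor and 0.743 for fibroblast genes in list 1, and 2.09 for matrix genes in list 2. At 25 kb TGF-beta genes were at 3.27 in list 1. With folds of at least 10, TGF-beta genes were at 3.07 in list 1, and in list 2 Wnt genes were at 0.518, endothelial at 0.864, kinase at 1.20 and fibroblast genes at 0.592. With the strongest 5000 peaks, list 1 had TGF-beta at 3.0, actin at 3.49, growth factor at 1.75 and fibroblast genes at 0.693, and list 2 had Hippo at 3.19, Wnt at 0.307, endothelial at 0.854, kinase at 1.28 and fibroblast genes at 0. Expectation by span class gave TGF-beta 3.10 and 2.58, actin 2.57 and neuronal 0.468 and 0.457, and cardiomyocyte 0.767 in list 1. The growth factor list of list 2 reversed, to 0.902 without chromosome 9 and 0.890 without raised backgrounds, both of which remove Pdgfd. The causes of the other changes were not tested.

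With 1 library in each group, no spread between cultures is known. No paired analysis was possible because each group had 1 library and the lists are not tied to groups. The motif search at deep summits and its narrower window were not run, since no genome sequence was used here.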
